A study of Mus musculus with 3 samples.

Results

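Etv4, Etv5, Etv1, Dusp6, Spry1, Spry2, Spry4, Spred1, Spred2 and Il17rd are transcription factors and inhibitors that lie downstream of receptor tyrosine kinases. They were followed in sorted ureteric tip cells of the mouse embryo. The 10 genes were chosen by symbol and all 10 were measured, out of 19938 genes with a probe set that carries 1 gene symbol. A single group of 3 Affymetrix arrays was hybridised, each with RNA of 1 ureteric bud (not pooled) from CD-1 mice carrying the transgene Tg(Hoxb7-EGFP)33Cos, at 10.5 dpc (Theiler stage 18). Embryos were of unknown sex. All 3 samples carry the transgene, whose green fluorescent protein marks the nephric duct and its bud and was the basis of the sort, and there is no control, mutant or second stage to compare with. The labels do not say whether the buds came from different embryos.

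Growth factors such as GDNF and FGFs bind receptor tyrosine kinases (RET and the FGF receptors in the ureteric bud), and these activate RAS and the ERK MAP kinases. Signalling from such receptors switches on the PEA3 group of ETS transcription factors, Etv4, Etv5 and Etv1. It also switches on a set of genes whose products damp the pathway. Among the latter, Sprouty and Spred proteins act on the steps from the receptor to RAF, Il17rd (also called Sef) acts at the membrane, and Dusp6 removes the activating phosphates from ERK. In the mouse kidney Etv4 and Etv5 are needed together for branching of the bud downstream of RET, and loss of Spry1 gives extra buds.

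Signals are on the log2 scale, and a gene was called above background when its mean difference from the background level of its arrays was larger than 0. That level was the 95th percentile of 1035 olfactory receptor probe sets, genes taken as unused in this tissue, and it was 5.40, 5.45 and 5.41 log2 on arrays 1, 2 and 3. Calls came from limma (one-sided, Benjamini-Hochberg adjusted p under 0.05 over all 19938 genes). The deposited summaries often repeat a value to the last decimal: 51.7% of genes had 1 value on every array and a further 28.7% shared a value between 2 arrays. An SD of 0 in such a gene is a property of the summaries, and its p-value rests on the spread of the 3 background levels and on the prior.

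Of the 10 genes, 9 were above background, against 53% of all genes tested. Their median difference from background was 1.50 log2, and that of all genes 0.22 log2. Spry4 was the exception. The differences were −0.08 log2 in Spry4 and 0.77 to 4.17 log2 in the others. Probe sets differ in how strongly they respond, and 2 probe sets of Il17rd lay 2.53 log2 apart, so these differences sort genes by signal and do not rank their transcript levels. Only 2 genes, Etv4 and Dusp6, had arrays that differed by over 1 log2. Such a range was found in 473 genes, 2.37% of all 19938, of which only 9627 had unequal values. The same value stood on every array for 3 genes (Spry1, Spry4 and Spred1).

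**Figure D1:**
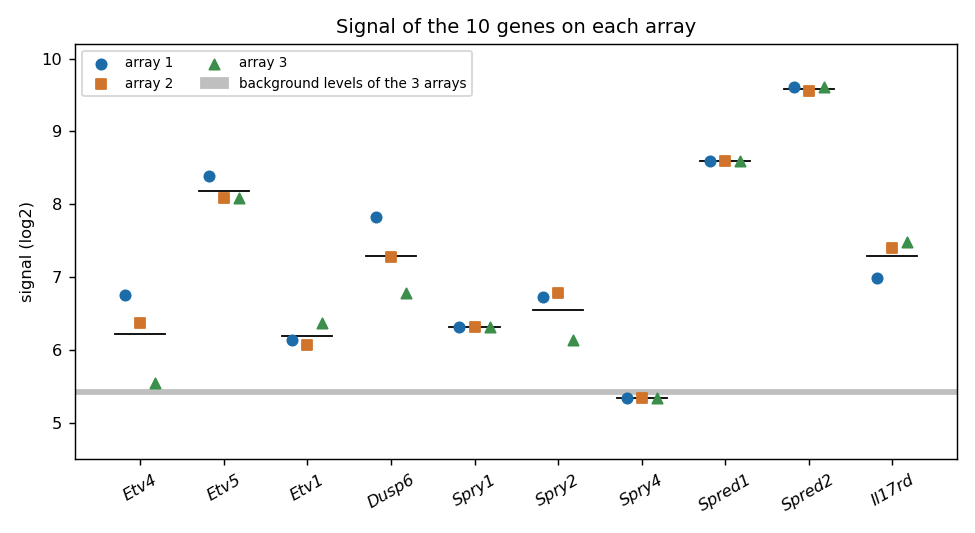
Signal (log2, vertical axis) of the 10 genes on arrays 1, 2 and 3, each array holding 1 bud, with the mean as a black line and the background levels of the 3 arrays (5.40 to 5.45 log2) as a grey band. Spry4 lies below the band on every array, Etv4 on array 3 lies just over it at 5.54 log2, and the other genes lie clear of it.

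Sequences upstream of the genes are shown because the first factor of this group, Etv4, was named after its DNA site: PEA3 proteins bind sites with the core GGAA, and the PEA3 site of the polyoma enhancer reads AGGAAG. The 250 bases before each RefSeq gene start (GRCm38.p6) were searched for AGGAAG on both strands. The members matched 10 such windows of 8 genes by symbol, and Etv4 and Spry4 were not used here. AGGAAG was found in 3 of the 10 windows (30%), those of Dusp6, Spred2 and the upstream start of Etv1, and in 29.5% of all 32851 windows of the same length, so the share is that of promoters at large. The shorter core GGAA, which lies inside AGGAAG, was found in 9 of the 10 windows (90%) and in 93.4% of all windows, and was missing from the upstream start of Etv5. The 3 windows with a match follow, 5′ to 3′ on the strand of the gene, with AGGAAG or its reverse complement CTTCCT in capitals.
Dusp6 (chr10:99262981-99263230, plus strand): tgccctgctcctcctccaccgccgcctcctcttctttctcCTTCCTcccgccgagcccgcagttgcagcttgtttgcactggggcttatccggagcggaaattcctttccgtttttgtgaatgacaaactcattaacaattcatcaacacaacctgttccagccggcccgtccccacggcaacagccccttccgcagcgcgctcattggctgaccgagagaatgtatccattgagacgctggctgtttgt
Spred2 (chr11:19924192-19924441, plus strand): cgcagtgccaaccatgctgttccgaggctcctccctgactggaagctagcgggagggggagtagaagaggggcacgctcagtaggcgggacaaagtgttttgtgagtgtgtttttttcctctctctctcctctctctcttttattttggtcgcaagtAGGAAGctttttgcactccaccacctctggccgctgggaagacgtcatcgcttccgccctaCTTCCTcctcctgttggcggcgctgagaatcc
Etv1 (chr12:38779832-38780081, plus strand): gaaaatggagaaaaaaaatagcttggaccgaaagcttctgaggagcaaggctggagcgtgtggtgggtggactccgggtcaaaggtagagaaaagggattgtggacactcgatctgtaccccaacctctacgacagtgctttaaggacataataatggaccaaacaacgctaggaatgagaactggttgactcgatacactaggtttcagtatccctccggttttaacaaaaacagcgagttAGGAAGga
The match lies 210 bases before the start in Dusp6 and 8 bases before it in Etv1, and Spred2 holds one at 93 and another at 32 bases. A match is a string of letters and not a measured binding site.

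Among the ETS factors of the PEA3 group, Etv4 had signals of 6.76, 6.37 and 5.54 log2 on arrays 1, 2 and 3. The first and second buds lay well over their background and the third only 0.14 log2 over it, against 1.36 and 0.92 log2 in the others. Etv4 averaged 6.22 ± 0.62 log2 (SD, n = 3), 0.81 log2 over background with a standard error of 0.26 (limma, adjusted p = 0.0397). The call was lost without array 2 (limma, adjusted p = 0.217) and with the prior taken from genes that are not identical (adjusted p = 0.0533). It was also lost with the 99th percentile as background (adjusted p = 0.677). Without array 1 the call was kept, though the difference was smaller (0.53 log2, against 0.75 log2 without array 2). The fits without array 1 or array 3 used a pooled SD of 0.18 log2, so their calls cannot be set beside the one without array 2. Against beta-defensins and keratin-associated proteins, the highest background level tried, Etv4 lay below it (−0.64 log2, adjusted p = 1). Its range of 1.22 log2, or 2.33-fold between buds, was reached by 1.43% of all genes, those with 1 value on every array included.

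Etv5, which acts together with Etv4 in bud branching, had signals of 8.39, 8.08 and 8.08 log2. The first bud was highest and the other two were listed at the same value. The mean lay 2.76 log2 over background (SE 0.09, limma, adjusted p = 2.32e-05), and the call held in all 14 alternatives. This average joins 2 probe sets that differ by 1.35 log2. Probe set 10438626 gave 8.86 log2 on every array, while probe set 10363901 gave 7.92, 7.30 and 7.30 log2, so the whole difference between buds came from the second of these.

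Etv1 had signals of 6.13, 6.07 and 6.37 log2, with the highest value on array 3, where Etv4 was lowest. It lay 0.77 log2 over background (SE 0.08, limma, adjusted p = 0.000901), a call lost at the 99th percentile (adjusted p = 0.150) and at the highest level tried, where Etv1 lay below background (−0.67 log2). Its probe sets differed by 0.61 log2: 10395457 gave 6.52, 6.45 and 6.52 log2, and 10406934 gave 5.75, 5.69 and 6.22 log2. Each passed on its own (adjusted p of 3.1e-05 and 0.0277 in a limma fit over probe sets, added after seeing the data). The higher value on array 3 came from probe set 10406934.

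Dusp6, the ERK phosphatase, had signals of 7.83, 7.28 and 6.78 log2 on arrays 1, 2 and 3. As with Etv4 the first bud was highest and the third lowest, but all 3 stayed at least 1.38 log2 over their background. It averaged 7.29 ± 0.52 log2 (SD, n = 3), 1.88 log2 over background (SE 0.22, limma, adjusted p = 0.00169). Its highest bud was 2.06-fold over its lowest, a spread that 2.11% of all genes reached, those with 1 value on every array included. Its call was lost at the highest background level (0.43 log2, limma, adjusted p = 0.19).

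The Sprouty genes encode inhibitors that act between the receptor and RAF. Spry1, the one whose loss in mice gives extra buds, was listed at 6.31 log2 on every array, 0.89 log2 over background (limma, adjusted p = 1.34e-05). The same number stood on array 1 for 37 other probe sets, so this value is shared widely in the table. Spry2 had signals of 6.72, 6.78 and 6.14 log2, with arrays 1 and 2 close together and array 3 lower by 0.64 log2 than the highest. It lay 1.13 log2 over background (SE 0.15, limma, adjusted p = 0.00217). At the highest background level Spry1 and Spry2 both lay below it (−0.55 and −0.32 log2). Spry4 was listed at 5.34 log2 on every array, below the background level of each, and was not called (difference −0.08 log2, limma, adjusted p = 1). With the lower levels given by the 90th percentile or by vomeronasal receptors, Spry4 lay 0.30 and 0.52 log2 over background and was called (limma, adjusted p of 5.63e-05 and 1.06e-05), as were all 10 genes, but also 63.7% and 65.8% of all genes.

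The Spred genes encode membrane proteins that bring the RAS-inactivating protein neurofibromin (Nf1) to RAS. Spred2 had signals of 9.60, 9.55 and 9.60 log2, nearly level over the buds, and lay 4.17 log2 over background (SE 0.03, limma, adjusted p = 8.69e-07). Its probe sets lay close together, 10374455 at 9.49 log2 on every array and 10374464 at 9.72, 9.61 and 9.72 log2. Spred1 was listed at 8.59 log2 on every array, 3.18 log2 over background (limma, adjusted p = 8.3e-07). Both calls held in all alternatives that kept the gene. Spred3, named after its values were seen, lay 1.86 log2 over background at 7.29, 7.28 and 7.28 log2 (limma, adjusted p = 2.33e-06).

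Il17rd, a transmembrane antagonist of FGF receptor signalling, had signals of 6.99, 7.40 and 7.48 log2. Unlike Etv4 and Dusp6 it was lowest on array 1. It lay 1.87 log2 over background (SE 0.11, limma, adjusted p = 0.000149), and the call held in all 14 alternatives. Its 2 probe sets were the farthest apart of those of the 4 genes that have a pair, by 2.53 log2. Probe set 10413416 gave 8.06, 8.87 and 8.72 log2 and 10413398 gave 5.92, 5.92 and 6.23 log2, and the low first bud appeared by itself only in the brighter one.

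**Figure D2:**
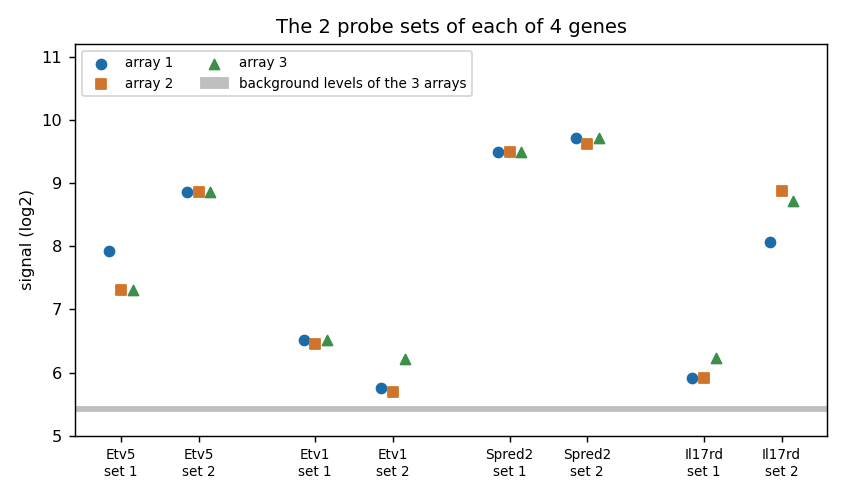
Signal (log2) of the 2 probe sets of Etv5, Etv1, Spred2 and Il17rd on the 3 arrays, numbered in the order of their identifiers, with the background levels as a grey band. The pair differs by 0.19 log2 in Spred2 and by 2.53 log2 in Il17rd, and the spread between buds sits mainly in 1 probe set of Etv5 and Etv1.

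The 7 genes with unequal values did not share 1 pattern over the buds. Array 1 alone was highest and array 3 alone lowest in Etv4 and Dusp6, 2 of the 7, a pattern that 8.14% of the 9627 genes with unequal values had. Array 3 alone was lowest in 3 of the 7 (Spry2 is the third), against 20.5% of those genes. Etv1 and Il17rd were highest on array 3 instead, and Etv1 and Spred2 were lowest on array 2. Likeness of 2 profiles was measured as the Euclidean distance between the deviations from the gene mean over the 3 arrays. Etv4 and Dusp6 were the nearest to each other among pairs that include either, at 0.237 log2. Closer pairs among the genes were Etv1 with Spred2, at 0.195 log2, and Etv5 with Spred2, at 0.235 log2. Etv4 and Il17rd were the farthest apart, at 1.21 log2. Over all genes, 58 of 9626 lay within 0.3 log2 of Etv4, Dusp6 among them. The nearest were Ttc8 and Pop4, each at 0.04 log2, and n-R5s136 at 0.08 log2. For Dusp6, 133 genes lay within that distance, and the nearest were Crem at 0.03 log2, Plxnb2 and Narf, both at 0.05 log2. With 3 arrays such a distance describes these buds and is no test.

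The markers of the tissue and of other cell types moved with these patterns in part. All 13 tip and duct markers were above background, against 53% of all genes, and of the 11 with unequal values 6 were highest on array 1 alone and lowest on array 3 alone, as Etv4 and Dusp6 were. Those extremes were found in 8.14% of all genes with unequal values. Ret, the receptor upstream, had 8.69, 8.35 and 8.18 log2, and its co-receptor Gfra1 8.58, 8.22 and 7.85 log2. The markers farthest over background did not have that pattern: the calcium-binding protein gene Calb1 had 11.49, 11.52 and 11.38 log2, the keratin gene Krt8 10.77, 9.67 and 9.90 log2, and the adhesion gene Epcam 9.27 log2 on every array. The summed linear signal of the 13 markers was 7952, 6571 and 6270 on arrays 1, 2 and 3, and 6209, 5754 and 5316 without Krt8, which carries much of the excess of array 1 and is lowest on array 2. Endothelial markers were above background in 9 of 12 (75%, against 53% of all genes), without Kdr, Esam and Sox17. All 12 were lowest on array 2 alone, against 21.9% of all genes with unequal values. Their summed signals were 1418, 768 and 2024. Erythroid markers were above in 4 of 7 (57.1%), near the share of all genes, without Hbb-y, Hbb-bh1 and Gata1, and summed to 1012, 339 and 790. The embryonic globin gene Hbb-y, at 8.86, 5.48 and 8.52 log2, lay over the level of every array and missed the test with a wide spread (limma, adjusted p = 0.053). By the rule without a model, which asks for a value over the level on every array, 11 of the 12 endothelial and 5 of the 7 erythroid markers were above background. That rule called 54% of all genes. In the main analysis metanephric mesenchyme markers were above in 4 of 11 (Cited1, Wt1, Crym and Uncx). Stroma markers were above in 2 of 7 (Col1a1 and Col3a1) and leukocyte markers in 3 of 7 (Cx3cr1, Cd68 and C1qc). Those shares of 36.4%, 28.6% and 42.9% lay under the 53% of all genes. The part of these markers in the values of Etv4, Dusp6, Spry2, Etv1, Spred2 and Il17rd was not tested, and in such bulk samples fewer cells of a type and less RNA per cell cannot be told apart.

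**Figure D3:**
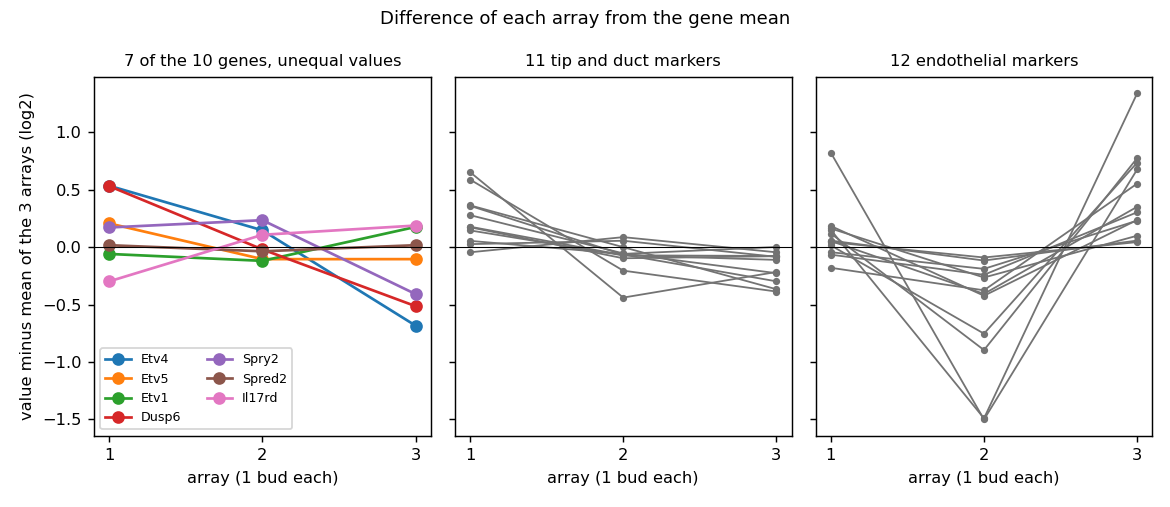
Value on each array minus the mean of the gene's 3 arrays (log2, vertical axis) by array, with lines that join the values of 1 gene and carry no order of the buds. Etv4 and Dusp6 span 1.22 and 1.04 log2 with array 1 highest and array 3 lowest, 6 of 11 tip and duct markers share those extremes, and all 12 endothelial markers are lowest on array 2.

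The rest of the pathway was described with lists of other genes, 83 of which were measured and 62 above background (74.7%, against 53% of all genes). Genes that depend on RET or on Etv4 and Etv5 in the mouse bud were above background in 8 of 8, with a median difference of 2.10 log2. The chemokine receptor Cxcr4 had 9.42, 8.86 and 8.64 log2, Ret lay 2.99 log2 over background, and the HGF receptor Met had 7.91, 7.61 and 7.91 log2. Cxcr4 was highest on array 1 and lowest on array 3, as Etv4 and Dusp6 were, while Met was lowest on array 2. The least over background were Wnt11, Myb and Sox8, at 0.63, 0.92 and 0.94 log2, each with 1 value on every array. The count fell to 7 at the 99th percentile, against 35.3% of all genes. With beta-defensins and keratin-associated proteins as background it fell to 5, against 21.1% of all genes.

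Receptors and ligands upstream were above background in 7 of 13 (53.8%), near the 53% of all genes, with a median of 0.36 log2. Apart from Ret, those farthest over background were Fgfr2, a receptor for FGF7 and FGF10 in epithelia, at 2.93 log2 over background (limma, adjusted p = 1.62e-05), and Gfra1 at 2.80 log2 (adjusted p = 0.000143). Those farthest below it were Hgf (−1.31 log2), Egfr (−1.16 log2) and Fgf7, listed at 4.42 log2 on every array, all with an adjusted p of 1. The RAS-ERK cascade was above background in 14 of 15 measured genes, with a median of 1.67 log2. Nras lay 5.06 log2 over background, the ERK-activated kinase gene Rps6ka3 3.48 log2 and the RAS exchange factor gene Sos1 2.28 log2, and the scaffold gene Ksr1, at 5.40 log2 on every array, was the one not above. The adaptor gene Gab1, named after its values were seen, had 8.17, 6.88 and 7.22 log2 and was the one in this list with arrays over 1 log2 apart.

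Other MAP kinase phosphatases, relatives of Dusp6, were above background in 7 of 9 (77.8%, against 53% of all genes), with a median of 0.66 log2. Dusp9, whose product also removes phosphates from ERK, was listed at 8.21 log2 on every array, 2.79 log2 over background, followed by Dusp16 at 1.55 log2 and the immediate early gene Dusp1 at 0.99 log2. Dusp8 (0.09 log2, limma, adjusted p = 0.0535) and Dusp10, at 4.42 log2 on every array (adjusted p = 1), were not above it. Other feedback genes were above background in 14 of 18 (77.8%, against the same 53%), with a median of 1.08 log2. Those farthest over background were the RAS GTPase activator gene Rasa1 at 4.09 log2, the ubiquitin ligase gene Cblb at 2.59 log2 and Nf1 at 2.38 log2. Those not above were Spry3 (−0.78 log2), Rasa3 (−0.21 log2), Lrig3 (−0.15 log2) and Lrig2, at 5.97, 5.97 and 5.26 log2 (adjusted p = 0.132). Of the 4 Sprouty genes, Spry1 and Spry2 were therefore above background and Spry3 and Spry4 were not.

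Of the ETS factors outside the PEA3 group, 14 of 22 (63.6%) were above background, against 53% of all genes. Their median was 0.68 log2. Those farthest over background were Gabpa, a widely used ETS factor, at 9.62 log2 on every array (4.20 log2 over background), Fli1, an ETS factor of endothelial and blood cells, at 8.13 log2 on every array, and Elk4, an ETS partner of serum response factor, at 8.10, 7.73 and 7.73 log2. Those farthest below it were Spic, Ehf and Spib, at −1.38, −1.35 and −1.10 log2 from background. Of the 14 with unequal values, 7 were lowest on array 2 alone (50%), against 21.9% of all genes with unequal values. These 7, named after their values were seen, were Ets1, Erg, Etv3, Etv6, Erf, Elk3 and Ehf. Etv3 and Ehf were not above background, and the range of Erf was only 0.04 log2. Fli1 had 1 value on every array, a property of the summaries, so its spread between buds cannot be set beside that of the endothelial markers.

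**Figure D4:**
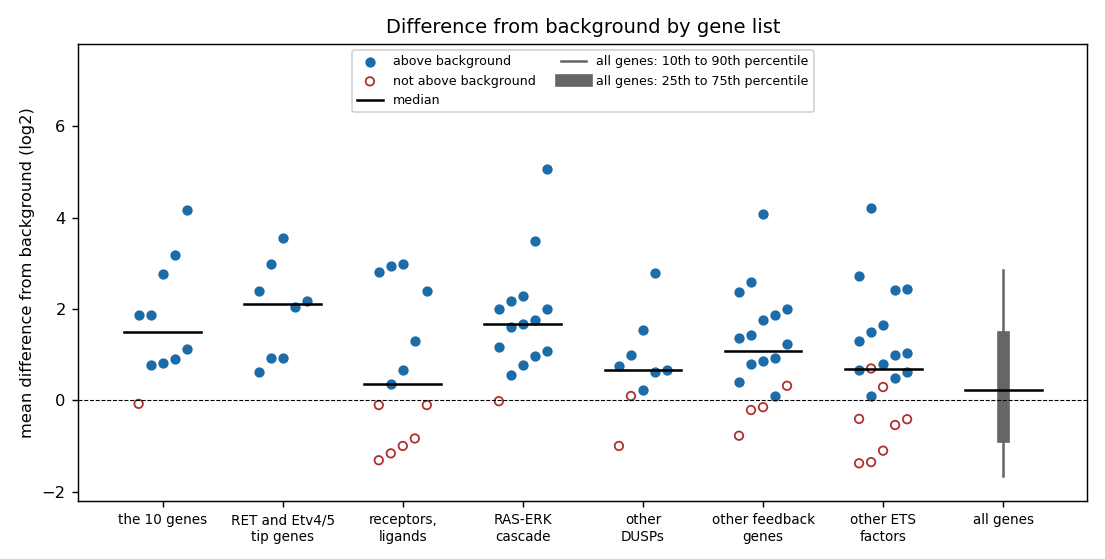
Mean difference from background (log2, vertical axis) of each gene in the 10-gene group, in 6 lists of other pathway genes and over all genes, with filled points for genes above background, open points for those not above, and black lines for medians. The 10 genes have a median of 1.50 log2, the lists run from 0.36 log2 (receptors and ligands) to 2.10 log2 (RET and Etv4/Etv5 dependent tip genes), and all genes have 0.22 log2.

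How firmly a gene is called depends on the background level. It was 4.75 to 4.92 log2 by the vomeronasal receptors, 6.01 to 6.10 log2 by the 99th percentile of olfactory receptors and 6.82 to 6.91 log2 by beta-defensins and keratin-associated proteins. At the 99th percentile 7 of the 10 genes were called, against 35.3% of all genes, without Etv4, Etv1 and Spry4. With beta-defensins and keratin-associated proteins in that role 4 were called, Etv5, Spred1, Spred2 and Il17rd, against 21.1% of all genes. Those 4 were above every level tried.

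**Figure D5:**
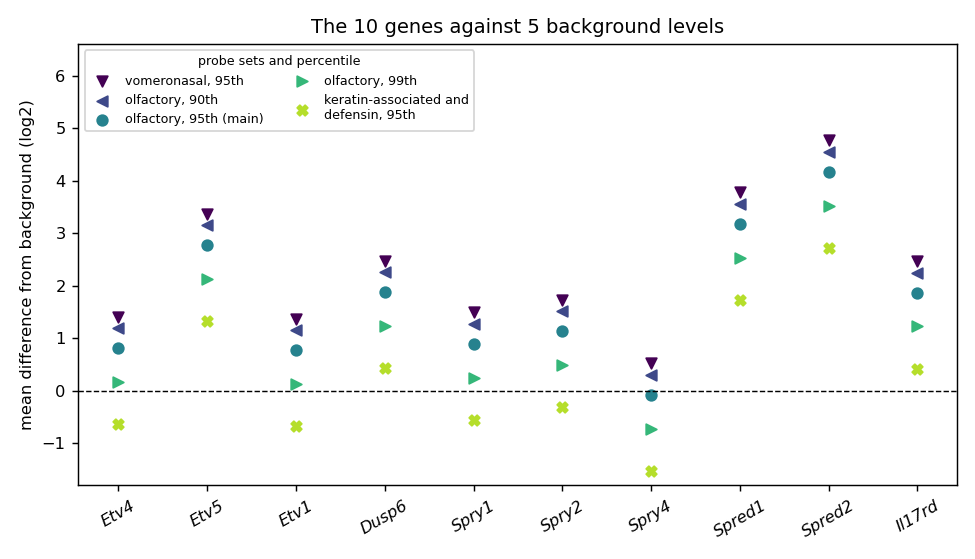
Mean difference from background (log2, vertical axis) of each of the 10 genes against 5 background levels, with the dashed line at 0. Etv5, Spred1, Spred2, Dusp6 and Il17rd stay over the line at every level, and Spry4 lies over it at the lower levels (0.30 and 0.52 log2) and under it at the others.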

How the data were processed

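RNA of 3 samples, each 1 ureteric bud, was amplified in 1 round and hybridised to Affymetrix arrays. The authors deposited 1 log2 value per probe set and array, and the submitters' processing notes name Affymetrix Expression Console. The sources used here do not give its version or how it corrected background, normalized and summarised, and the base of 2 was inferred from the range of the values (1.69 to 14.15). Array medians were 5.47, 5.50 and 5.48 log2, and the columns were used as deposited.

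Probe sets with 1 symbol in the platform annotation (21789 of 35557) were averaged per gene. All 14 probe sets of the 10 genes were used. Detection was tested with limma 3.58.1 in R 4.3.3 (prior of 1.71 degrees of freedom and SD of 0.05 log2). The fit was also run on simulated data with normal spread and the same background level on every array. Those data lacked the repeated values of these arrays, so they do not test genes with an SD of 0. Values within 1e-06 log2 were counted as identical. There is 1 group, so no p-value compares conditions, and precision is limited by the number of arrays. The p-values rest on the spread between these arrays and on the prior. For a gene with 1 value on every array they measure no spread of that gene between buds, only that of the background levels with the prior. The alternatives were other background percentiles and families, quantile normalization, 1 probe set per gene, filters, other priors, a rule without a model and leaving out each array; the one with the lowest probe set was added after seeing the data.

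The 10 genes, the lists and the tests were chosen with earlier results of these data known. Named genes were the 10, the highest 3 and lowest 3 of each list (or all genes above or not above background where these were 5 or fewer), and the 3 nearest profiles to Etv4 and Dusp6. Of 93 genes in the pathway lists 83 were measured, and the others are not analysed here. Upstream sequences are those of RefSeq (GRCm38.p6).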

Additional observations from a re-analysis of the deposited data

How the results depend on the processing

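Of the 10 genes, 9 were above background in the main analysis, and 4 to 10 in the 14 alternatives. Of all genes tested, 53% were called in the main analysis and 21.1% to 70.9% in the alternatives. The count was 4 with beta-defensins and keratin-associated proteins as the reference probes, where Etv4 (−0.64 log2), Etv1 (−0.67), Spry1 (−0.55) and Spry2 (−0.32) lay below the level. Dusp6 lay 0.43 log2 over it without passing (limma, adjusted p = 0.19). Spry4 turned to 0.30 log2 at the 90th percentile and 0.52 log2 with vomeronasal receptors, which lie lower. Of the pathway genes 62 were above background, 25 against those probes and 35 with identical genes left out, which removes 40 of the 83. Over all genes the shares were 53%, 21.1% and, of the 9627 with unequal values, 63.1%. The median level of the 10 genes was 6.92 log2 and moved to 6.43 log2 with the lowest probe set of each gene, by construction lower.

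Leaving out 1 array gave 8 to 9 of the 10 genes, 60 to 63 pathway genes and a median level of 6.75 to 6.97 log2. Of all genes, 48.5%, 52.8% and 48.8% were called without arrays 1, 2 and 3. Among the 10 genes Etv4 was the one lost, without array 2. The fits without array 1 or array 3 used a pooled SD of 0.18 log2, and that with vomeronasal receptors one of 0.21 log2, so their p-values cannot be set beside those of the others. No paired analysis was possible because there is 1 group. The choice of background limits which low signals can be called: Etv4, Etv1, Spry1, Spry2 and Spry4 lie within the span of the levels tried.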

Other observations

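Values in the deposited table repeat across probe sets as well as across arrays. On array 1, 52.6% of the 35557 probe sets had a value that at least 1 other probe set also had. Among the 14 probe sets of the 10 genes this held for Spry1 (37 others), Spry2 (18), Spry4 (8), the brighter set of Il17rd (4), a set of Etv1 (2) and Etv4 (1), and for none of the sets of Etv5, Dusp6, Spred1 and Spred2. The 14 probe sets split into 5 with 1 value on every array, 4 with a value shared by 2 arrays and 5 with 3 different values.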
